A study of Mus musculus with 10 samples.

Results

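Fatty acid synthesis in hepatocytes was followed through 10 genes of the pathway, chosen by name: the count tables' rows fasn, acaca, acacb, acly, me1, scd1, elovl5, elovl6, pnpla3 and thrsp. All 10 were found among 14812 rows. The tables hold single hepatocytes, the main cells of the liver, from C57BL/6 male mice of 3 months on regular chow without restriction, taken under ketamine and xylazine anaesthesia at 4 Zeitgeber times (ZT, hours of the light-dark cycle, with lights on at ZT0 by convention; the light hours are not stated). There were 3 libraries at ZT0 (A, B and C), 2 at ZT6 (A and B), 3 at ZT12 and 2 at ZT18. All groups share strain, sex, age, diet and anaesthesia and differ by time. The liver was digested with collagenase and hepatocytes were enriched on Percoll. The number of mice behind each library is not stated, so p-values measure the spread between libraries, which may be technical in part.

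Fatty acids are made in the cytosol from acetyl-CoA, which ATP citrate lyase (Acly) releases from citrate. Acetyl-CoA carboxylases 1 and 2 (Acaca and Acacb) form malonyl-CoA, fatty acid synthase (Fasn) builds palmitate from it with NADPH that malic enzyme (Me1) helps to supply, and elongases (Elovl6, Elovl5) and stearoyl-CoA desaturase 1 (Scd1) lengthen and desaturate the product. Thrsp (Spot 14) is a small protein that promotes lipogenesis, and Pnpla3 is a lipid droplet protein with lipase activity. The pathway is known to be induced by feeding through the transcription factors SREBP-1c and ChREBP, and mice eat mostly in the dark phase, which begins at ZT12 by convention.

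The 10 libraries held 18378 cells and 1454623 to 7144803 UMIs (unique molecular identifiers, which count distinct molecules). Levels are in CPM, UMI counts scaled to the same total in every library or zone. The summed level of 5 of 6 listed hepatocyte markers was 28778 to 59132 CPM (Tf has no row). The 7 macrophage markers summed to at most 2.79 CPM, with 4 at 0 in every library, and 3 of 6 adipocyte markers had a row and summed to 0.595 to 8.53 CPM. Erythroid markers (5 of 6 with a row) were at 99.0 and 361 CPM in the ZT18 libraries and 72.2 to 108 at other times. Most of the lower sums is Alas2, at 67.4 to 107 CPM over the libraries. The haemoglobin rows had medians of 0 to 1.47 CPM and reached at most 142 (Hbb-bs). The periportal landmarks used for zones were at 3870.3 and 4616 in the ZT18 libraries against 2928 to 3613 at other times. Mitochondrially encoded RNA took 12.9% (ZT12C) to 24.3% (ZT12A) of UMIs, with 21.5% and 19.3% at ZT18; the part of these values in the differences between times was not tested. The ZT18 libraries also have sample indices from a plate column used at no other time, so time and index column cannot be told apart there. Cells are numbered rather than given barcodes, and 0 cells had the same counts in 2 libraries.

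The genes spanned a wide range of levels. Scd1 was the highest at 5011 ± 1188 CPM (mean ± SD, n = 10 libraries) and held 64.2% of the UMIs of all 10 genes. Thrsp followed at 1118 ± 673, then Elovl5 at 447 ± 119, Acly at 402 ± 133, Fasn at 357 ± 173 and Me1 at 221 ± 51.3. Elovl6 (98.3 ± 51.4), Acaca (69.4 ± 21.8) and Acacb (52.9 ± 26.6) were lower, and Pnpla3 was near the detection limit at 3.75 ± 2.61 CPM, with 183 UMIs in all and 0 in ZT12C. The kit counts 1 tag per molecule from the 3' end, so levels are not scaled by transcript length. Neighbours in this order differed by less than the larger of their SDs, except Scd1 and Thrsp, Me1 and Elovl6, and Acacb and Pnpla3. These SDs hold the changes over the day too. The other desaturase rows Scd2, Scd3 and Scd4, near copies of Scd1, had 18, 11 and 3 UMIs over all libraries, against 199897 for Scd1.

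Over the day, a 24-h rhythm was called for Fasn, Elovl6 and Thrsp, all with fitted peaks between ZT 14.96 and ZT 18.97, whereas Scd1, at the highest level of all, had a fitted amplitude of 0.02 (log2, mean to peak). Calls use edgeR's quasi-likelihood F-test at an adjusted p of 0.05 (Benjamini-Hochberg, over all genes tested). The 3 calls of 10 stand against 5.14% of the 8908 genes tested, and the median amplitude of the 10 genes was 0.70 against 0.25 for all.

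**Figure D1:**
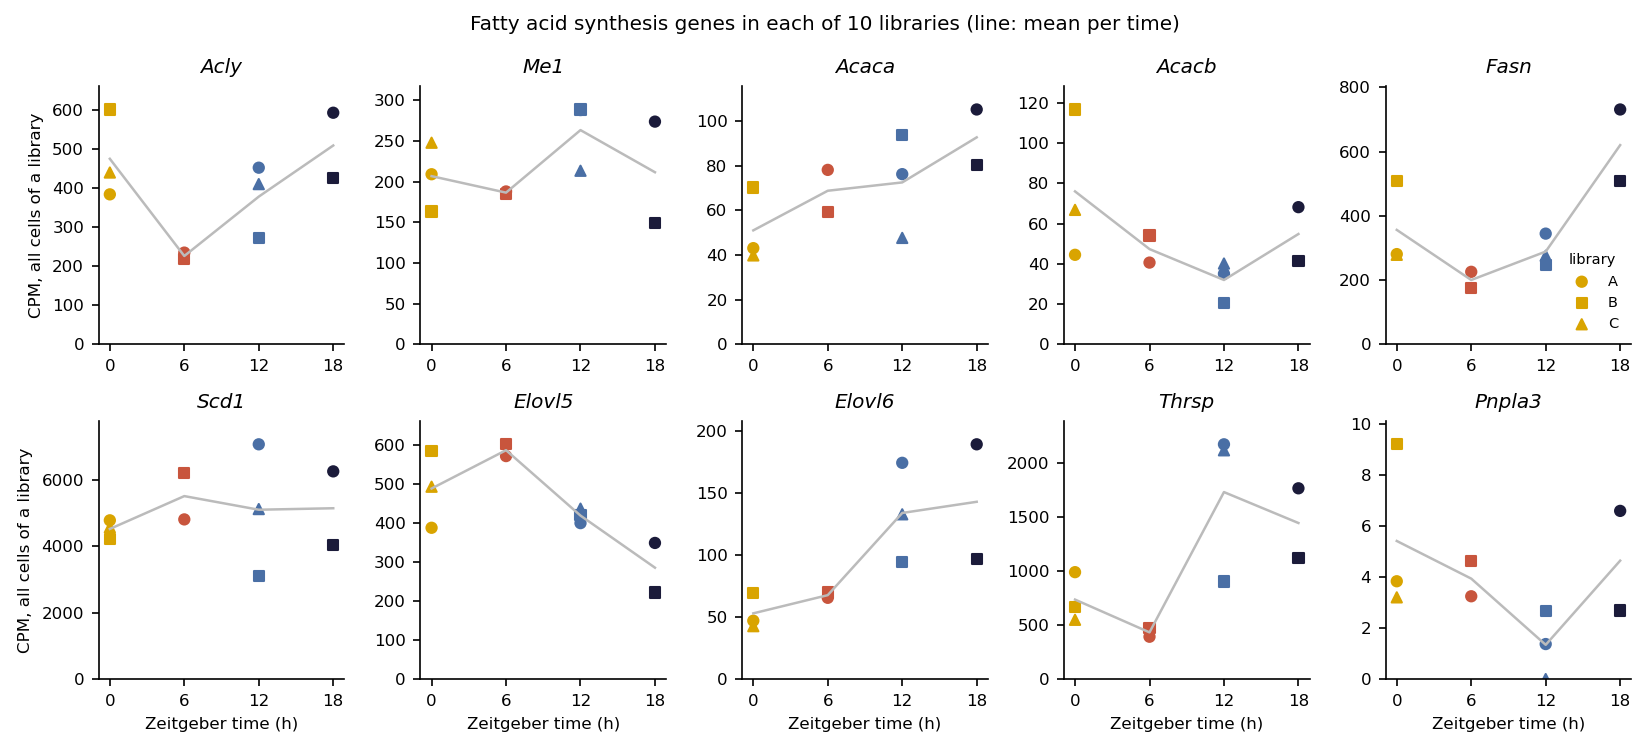
Level of each gene (CPM over all cells of a library, y axis from 0) against Zeitgeber time (h, x axis). Each point is 1 library, with its letter shown by shape, and the line joins the means per time. The ZT18 libraries stand above the ZT6 libraries for Fasn, Acly, Thrsp, Elovl6 and Acaca and below them for Elovl5. Of these, the ZT18 to ZT6 difference was called for Fasn, Acly and Thrsp alone. The share of all genes with these libraries apart was not counted.

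For carbon supply, Acly stood at 383, 601 and 439 CPM in the ZT0 libraries A, B and C, 234 and 217 in ZT6A and B, 452, 272 and 409.6 in ZT12A, B and C, and 592 and 425 in ZT18A and B. Both ZT6 libraries lay below all 8 others. Between ZT18 and ZT6 Acly rose by 1.24 ± 0.30 (log2 difference ± SE; edgeR adjusted p = 0.0365), but its rhythm over all cells, of amplitude 0.67 and peak ZT 19.40, missed the threshold (edgeR adjusted p = 0.0622). It passed with the library letter as a block (edgeR adjusted p = 0.0473) or without ZT12A (0.0366). Me1 averaged 207 ± 42.3 CPM over the ZT0 libraries, 186 ± 2.03 over ZT6, 263 ± 43.3 over ZT12 and 212 ± 88.1 over ZT18 (mean ± SD). Its ZT0 and ZT18 libraries overlapped those of every other time, and no rhythm was called (amplitude 0.17, edgeR adjusted p = 0.747).

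Neither carboxylase had a called rhythm by edgeR, though Acacb passed by DESeq2 (adjusted p = 0.00866). Acacb is the isoform tied to the mitochondrial surface. Acacb stood at 44.5, 117 and 66.9 CPM in the ZT0 libraries A, B and C, 40.6 and 54.1 in ZT6A and B, 35.1, 20.7 and 40.2 in ZT12A, B and C, and 68.2 and 41.5 in ZT18A and B. All 3 ZT12 libraries were below all 3 ZT0 libraries, a log2 difference of -1.44 ± 0.34 (edgeR adjusted p = 0.0302). Its rhythm, of amplitude 0.73 and peak ZT 23.25, was just outside the threshold (edgeR adjusted p = 0.0544) and passed without ZT0A (0.0232) or ZT0C (0.0489). Acaca, the cytosolic isoform, measured 51.1 ± 16.7 CPM at ZT0 and 92.8 ± 17.7 at ZT18, with an amplitude of 0.32 (edgeR adjusted p = 0.497). Its ZT18 libraries were above its ZT6 libraries by 0.50 ± 0.35, which is not past the threshold (edgeR adjusted p = 0.466).

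Fasn had the lowest adjusted p for a rhythm among the 10 genes. Fasn stood at 281, 509 and 278 CPM in the ZT0 libraries A, B and C, 226 and 175 in ZT6A and B, 344, 245 and 276 in ZT12A, B and C, and 731 and 509 in ZT18A and B. ZT18A was the highest, ZT18B and ZT0B both rounded to 509 and came next, and the ZT6 libraries were below all others. The amplitude was 0.88, a 3.40-fold range from trough to peak, and the fitted peak fell at ZT 18.97 (edgeR adjusted p = 0.015). ZT18 exceeded ZT6 by 1.71 ± 0.34 (edgeR adjusted p = 0.0149).

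Among the enzymes that modify palmitate, Elovl6, which lengthens it to stearate, was low at ZT0 (47.1, 69.4 and 42.7 CPM) and ZT6 (65.6 and 69.9) and high at ZT12 (175, 94.8 and 133) and ZT18 (189.6 and 96.7). Every ZT12 and ZT18 library exceeded every ZT0 and ZT6 library. Elovl6 rose by 1.18 ± 0.29 from ZT0 to ZT12 (edgeR adjusted p = 0.039) and had a rhythm of amplitude 0.82 peaking at ZT 14.96 (edgeR adjusted p = 0.0256). The ZT18 to ZT6 difference was 1.15 ± 0.36 (edgeR adjusted p = 0.0897). Elovl5, the elongase of polyunsaturated fatty acids, ran the other way: 572 and 602 CPM at ZT6 and 349 and 222 at ZT18, with 388, 585 and 493 at ZT0 and 400.1, 421 and 437 at ZT12. Its fitted peak was at ZT 4.64 (amplitude 0.52, edgeR adjusted p = 0.0816), and ZT18 was below ZT6 by -0.97 ± 0.27 without passing (edgeR adjusted p = 0.0655); that contrast passed with the letter block (edgeR adjusted p = 0.0361) or without ZT0A (0.048). Scd1 stood at 4775, 4208 and 4564 CPM in the ZT0 libraries A, B and C, 4803 and 6205 in ZT6A and B, 7062, 3107 and 5113 in ZT12A, B and C, and 6248 and 4029 in ZT18A and B. Its libraries differed more within ZT12 than its means did between times, and no contrast passed (edgeR adjusted p = 0.997 for the rhythm).

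Thrsp had the largest called amplitude. Thrsp stood at 992, 670.3 and 549.7 CPM in the ZT0 libraries A, B and C, 393 and 474 in ZT6A and B, 2177, 904 and 2121 in ZT12A, B and C, and 1769 and 1126 in ZT18A and B. Both ZT6 libraries were below every other library. Within letters, ZT12 exceeded ZT0 by 2.20-fold (A), 1.35-fold (B) and 3.86-fold (C). The amplitude was 1.04 and the fitted peak ZT 15.98 (edgeR adjusted p = 0.045). ZT18 exceeded ZT6 by 1.81 ± 0.44 (edgeR adjusted p = 0.0371), while ZT12 exceeded ZT0 by 1.05 ± 0.35 without passing (edgeR adjusted p = 0.14). The contrast of ZT12 with ZT0 passed by DESeq2 (adjusted p = 0.0377). Pnpla3 had 0 to 62 UMIs per library, and its difference of -1.70 ± 0.62 between ZT12 and ZT0 did not pass (edgeR adjusted p = 0.187).

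In counts by edgeR, 1 of 10 genes was higher at ZT12 than at ZT0 and 1 was lower, against 1.74% and 1.7% of all genes tested. Between ZT18 and ZT6, 3 were higher and 0 lower by edgeR, against 2.35% and 1.45% of all genes; 1 (Elovl5) was lower at an unadjusted p under 0.05 and by DESeq2 (adjusted p = 0.0158). Here the median log2 difference of the 10 was 0.42 against -0.01 for all genes. ZT18A exceeded ZT18B in CPM for all 10 genes, and the share of all genes that did so was not counted. The time calls rest on few libraries. By chi-square per degree of freedom, the ZT6 libraries differed less from each other (6.19), as did the ZT18 libraries (5.81), than those within ZT0 or ZT12 (24.3 to 69.3). The Fasn rhythm was lost without ZT6B (edgeR adjusted p = 0.065) or ZT18A (0.0996), that of Elovl6 without ZT0A (0.0504), ZT6A (0.0568) or ZT12A (0.0589), and that of Thrsp without any 1 of 7 libraries, namely ZT0B, ZT0C, ZT6A, ZT6B, ZT12A, ZT12C or ZT18A (0.0656 to 0.136). Without both ZT18 libraries none of the 3 passed, with amplitudes of 0.73 for Fasn (edgeR adjusted p = 0.288), 0.67 for Elovl6 (0.0555) and 1.49 for Thrsp (0.0513). With the index column as a block, the term for the ZT18 column takes up that time whole. The rhythm was then fitted to ZT0, ZT6 and ZT12 alone. In that fit Fasn had an amplitude of 0.93 and missed the threshold (edgeR adjusted p = 0.0666), and Acacb (0.0384), Acly (0.0458) and Pnpla3 (0.0345) passed.

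The contrasts between antiphase times were as sensitive. Acacb between ZT12 and ZT0 was lost without ZT0B, ZT12A, ZT12B or ZT12C (edgeR adjusted p = 0.0555 to 0.122), and Elovl6 without ZT0A, ZT0C, ZT6A, ZT6B, ZT12A or ZT12C (0.0651 to 0.151). Between ZT18 and ZT6, Fasn was lost without ZT6A, ZT6B or ZT18A (0.133 to 0.17), and Acly and Thrsp without any of the 4 libraries compared (0.104 to 0.28). Where 1 library of a time was then left, its spread was taken from the other times. No left-out library turned the direction of a called value.

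Position along the lobule axis, from the central vein (pericentral) to the portal vein (periportal), was taken from a score of 8 periportal and 8 pericentral landmark genes, none of them among the 10. Each library's cells were ordered by it and split into 3 equal zones for tests and 8 equal layers for profiles. Zones are ranks within a library, so they match between libraries only where the lobule was sampled alike, which was not tested. The summed pericentral landmarks were at 6757 to 15278 CPM at ZT0 and 7823 to 9035 at ZT6. They were at 7189 to 14677 at ZT12 and 7085 to 7590 at ZT18. Zone differences of different libraries or times need not be like for like. Between zones, Acly, Acaca, Fasn, Elovl5 and Pnpla3 were higher periportally, Me1 was higher pericentrally, and Scd1, Elovl6, Thrsp and Acacb were not called. These 5 higher and 1 lower of 10 stand against 11.9% higher and 12.7% lower among 8907 genes, landmarks left out. The 10 genes had a median periportal minus pericentral log2 difference of 0.27, against -0.01 for all genes.

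Acly had the steepest well-measured gradient. In pericentral against periportal cells it measured 289 against 449, 468 against 690.0 and 273 against 615 CPM in ZT0A, B and C, 129 against 324 and 143 against 280.3 at ZT6, 235 against 648, 127 against 375 and 132 against 689 at ZT12, and 572 against 589 and 303 against 478 at ZT18. All 10 libraries were higher periportally, with a ratio of 1.03 in ZT18A and 5.24 in ZT12C at the extremes. The log2 difference was 1.12 ± 0.12 (edgeR adjusted p = 5.81e-09). Over the 8 layers, the mean of the 10 libraries went from 192 ± 112 CPM in layer 1 to 521 ± 156 in layer 8.

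Acaca, the cytosolic carboxylase, showed the most even gradient across libraries. Its periportal to pericentral ratio was 1.53 to 1.65 at ZT0, 1.80 to 2.14 at ZT6, 1.91 to 2.02 at ZT12 and 1.54 to 1.58 at ZT18, above 1 in 10 of 10 libraries. The log2 difference was 0.90 ± 0.08 (edgeR adjusted p = 3.03e-11). Layer means went from 39.8 ± 9.31 to 88.6 ± 30.3 CPM. Acacb, the other carboxylase, had a difference of -0.01 ± 0.09 (edgeR adjusted p = 0.973) and was higher periportally in 4 of 10 libraries.

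Me1, the NADPH source, had the opposite gradient. Its ratio was 0.529 to 0.639 at ZT0, 0.454 to 0.568 at ZT6, 0.478 to 0.683 at ZT12 and 0.351 to 0.605 at ZT18, so that 10 of 10 libraries were higher pericentrally. The log2 difference was -0.77 ± 0.08 (edgeR adjusted p = 5.35e-10), and layer means went from 289 ± 71.5 CPM in layer 1 to 149.9 ± 34.4 in layer 8. In pericentral against periportal cells Me1 measured 435 against 153 CPM in ZT18A and 194 against 117 in ZT18B. ZT18A had the lowest ratio of the 10 libraries.

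Fasn and Elovl5 had shallower gradients. Fasn was higher periportally by 0.39 ± 0.09 in 8 of 10 libraries (edgeR adjusted p = 0.000794). Elovl5 was higher by 0.44 ± 0.08, also in 8 of 10 (edgeR adjusted p = 3.35e-05). Pnpla3 was higher by 1.72 ± 0.32 in 9 of 10 libraries (edgeR adjusted p = 9.32e-05), with periportal levels of 0 to 16.0 CPM, so its gradient rests on few UMIs. Thrsp (0.15 ± 0.07, edgeR adjusted p = 0.147), Elovl6 (0.05 ± 0.09, 0.747) and Scd1 (-0.14 ± 0.08, 0.242) did not pass. The zone calls held without any 1 library, except that Pnpla3 fell below the filter without ZT0B. Thrsp passed without ZT18A (edgeR adjusted p = 0.0232) and Scd1 without ZT0C (0.0141).

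**Figure D2:**
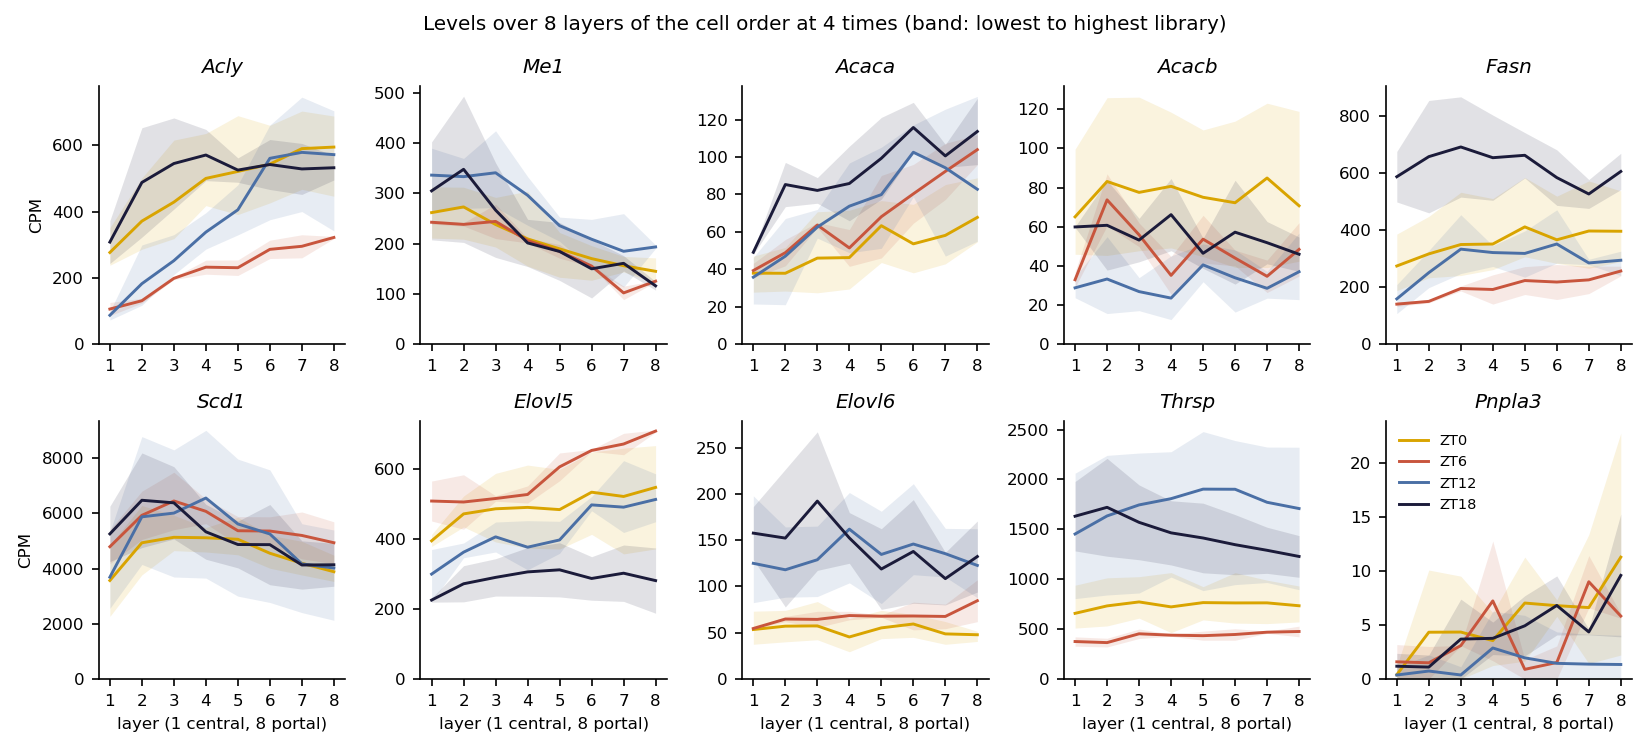
Level (CPM, y axis from 0) over 8 equal layers of the cell order, from layer 1 near the central vein to layer 8 near the portal vein. Lines are means of the libraries of each time and bands run from the lowest to the highest library; the lines of Me1 are lower in layer 8 than in layer 1 and those of Acly and Acaca higher, though Acly is highest in layer 7 at ZT12 and layer 4 at ZT18 and Acaca in layer 6 at both times, and Scd1 is highest in layers 2 to 4.

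The layer means of Scd1 over all libraries had an inner maximum. They were 4184 ± 1299 CPM in layer 1, 5904 ± 1490 in layer 3 and 4184 ± 1060 in layer 8. A test of the midlobular zone against the mean of both outer zones gave 0.20 ± 0.06 for Scd1, higher in 9 of 10 libraries, without passing (edgeR adjusted p = 0.144). A level above that mean need not be above both zones. Scd1 fell from pericentral over midlobular to periportal cells in ZT0A, ZT6B, ZT12B, ZT18A and ZT18B. In the other libraries it was highest in midlobular cells. None of the 10 genes passed that test (0 by edgeR and by DESeq2), against 0.641% of 8894 genes by edgeR. At an unadjusted p under 0.05 there were 4 of the 10, against 725 of 8894 genes. All 10 estimates were positive. Periportal cells carried a higher mitochondrial share than pericentral cells in 10 of 10 libraries (14.0% to 25.3% periportally, at most 23.1% pericentrally), and the part of this in the zone differences was not tested.

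The zone differences were then taken at each time. At ZT0, Acly (0.89 ± 0.14), Acaca (0.76 ± 0.13), Fasn (0.45 ± 0.13) and Pnpla3 (1.92 ± 0.46) were higher periportally and Me1 (-0.66 ± 0.12) pericentrally, 4 higher and 1 lower against 6.13% and 7.05% of all genes. At ZT6, Acly (1.28 ± 0.19), Acaca (1.12 ± 0.17), Fasn (0.73 ± 0.18) and Elovl5 (0.58 ± 0.15) were higher and Me1 (-0.84 ± 0.17) lower, 4 and 1 against 3.57% and 3.31%. At ZT12, Acly reached 1.87 ± 0.16 (edgeR adjusted p = 2.38e-11), Acaca 1.06 ± 0.15, Elovl5 0.61 ± 0.13 and Fasn 0.46 ± 0.14, with Me1 at -0.67 ± 0.14, again 4 and 1, against 4.69% and 5.14%. Fasn at ZT12 was higher periportally in 2 of 3 libraries.

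At ZT18, Acaca (0.72 ± 0.16, edgeR adjusted p = 0.00281) was the 1 gene called higher and Me1 (-1.06 ± 0.17, edgeR adjusted p = 2.74e-05) the 1 called lower, against 2.63% and 3.73% of all genes. Acly differed by 0.42 ± 0.17 (edgeR adjusted p = 0.177) and Fasn by -0.06 ± 0.16 (0.906). The plot of zone differences shows Acly lowest at ZT18 and highest at ZT12, and Acaca and Me1 on their own side of 0 at all 4 times. Both ZT18 calls were lost without ZT18A (edgeR adjusted p = 0.158 for Acaca and 0.216 for Me1), and Acaca without ZT18B (0.104). Without ZT0C, Acly (edgeR adjusted p = 0.0463) and Scd1 (-0.41, 0.0496) passed there.

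**Figure D3:**
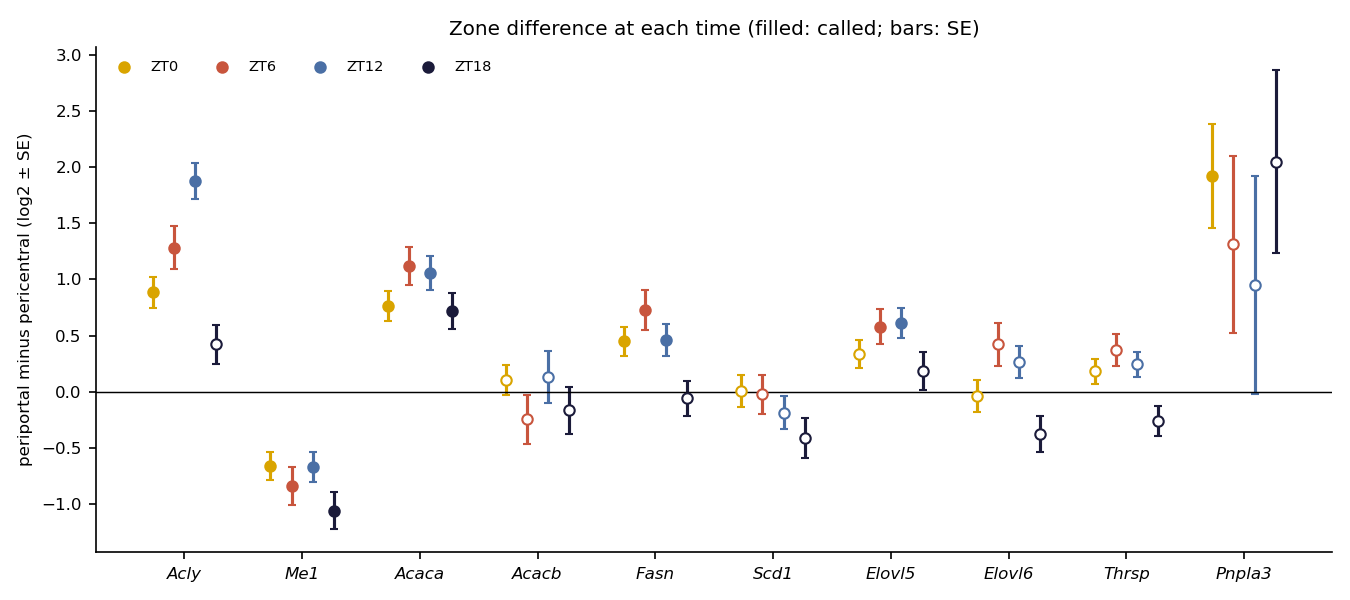
Periportal minus pericentral difference (log2, y axis; bars are SE) of each gene at the 4 times, shown by colour, with filled points for called differences. Acly goes from 1.87 at ZT12 to 0.42 at ZT18, and Me1 is below 0 at all times.

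Single libraries also decided several of these calls at the other times. The Fasn difference at ZT0 was lost without ZT0B (edgeR adjusted p = 0.0652) or ZT0C (0.239), at ZT6 without ZT6A (0.546), and at ZT12 without ZT12B (0.21) or ZT12C (0.266). At ZT6, Acaca was lost without ZT6A (0.0655), Me1 without ZT6B (0.0903) and Elovl5 without either (0.425 and 0.141). Elovl5 at ZT0 passed without ZT0A (0.00146) or ZT12C (0.049). The Acly differences at ZT0, ZT6 and ZT12 and those of Acaca at ZT0 and ZT12 held without any 1 library.

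The rhythm was next fitted in each zone. In pericentral cells Fasn, Acly, Elovl6 and Thrsp were rhythmic, 4 of the 9 genes tested there (Pnpla3 was below the filter of 3 CPM), against 2.8% of all genes. In midlobular cells the same 4 were called among 10, against 3.29%, and in periportal cells Fasn, Elovl6 and Thrsp, 3 of 10, against 4.35%. Of the 9 genes tested in all 3 zones, 6 had their largest amplitude in pericentral cells. These were Fasn, Acly, Elovl6 and Thrsp, and also Acaca and Me1, which had no called rhythm in any zone. Acacb, Elovl5 and Scd1 had theirs in periportal cells. The share of all genes largest in pericentral cells was not counted. The median amplitude of all genes was 0.291, 0.301 and 0.287 from pericentral to periportal. Fitted peaks of Fasn were at ZT 18.81, 18.98 and 19.34 in the same order. Its amplitudes were 1.11, 0.87 and 0.73 (edgeR adjusted p = 0.00883, 0.0188 and 0.0209). For Elovl6 they were 0.94, 0.87 and 0.71 (0.0315, 0.0193 and 0.0216), and for Thrsp 1.18, 1.04 and 0.92 (0.0306, 0.0418 and 0.0397).

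Acly had the widest spread of amplitudes: 1.08 in pericentral cells (peak ZT 20.29, edgeR adjusted p = 0.00891), 0.70 in midlobular cells (0.0352) and 0.46 in periportal cells (0.352). Pericentral Acly averaged 343 ± 108 CPM (mean ± SD) over the ZT0 libraries, 136 ± 9.51 over ZT6, 164 ± 61.2 over ZT12 and 437 ± 190.2 over ZT18. Periportal Acly averaged, in the same order, 585 ± 123, 302 ± 30.5, 570.3 ± 171 and 533 ± 78.5. All 3 pericentral ZT12 libraries were below all 3 ZT0 libraries, whereas 1 of the 3 periportal ZT12 libraries (ZT12B) was. The pericentral call held without any 1 library and was lost without both ZT18 libraries (edgeR adjusted p = 0.0564, amplitude 1.03).

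**Figure D4:**
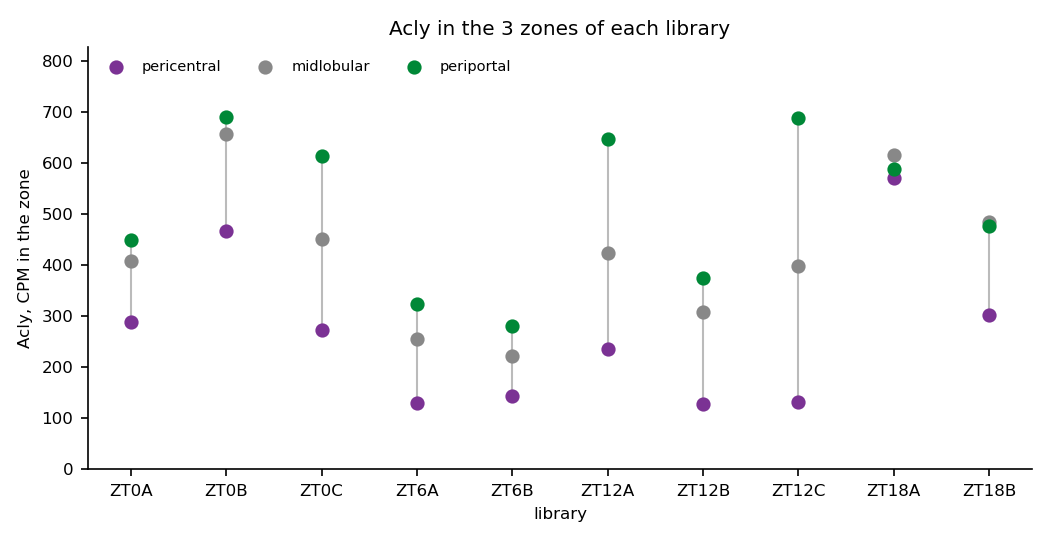
Acly in pericentral, midlobular and periportal cells of each library (CPM, y axis from 0), with 1 column per library. The pericentral point is the lowest in all 10 libraries, and the gap is 2.76-fold to 5.24-fold at ZT12 against 1.03-fold and 1.58-fold at ZT18.

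Whether a rhythm depended on the zone was tested directly, as zone by cosine and zone by sine. None of the 10 genes passed by edgeR, and 3 of 8907 genes (0.0337%) did. The lowest adjusted p was that of Acly, with an amplitude of 0.66 for the periportal minus pericentral difference (edgeR adjusted p = 0.115). At an unadjusted p under 0.05 there were 4 of the 10, against 545 of 8907 genes. These were Acly, Elovl6 (0.44, edgeR adjusted p = 0.5), Fasn (0.40, 0.59) and Thrsp (0.32, 0.658). By DESeq2 the count was 0 too. The Acly term passed without ZT0C (edgeR adjusted p = 7.15e-05), in cells with at least 3000 UMIs (0.00123), with the order split into 4 zones and the outermost pair compared (0.0203) and with genes down to 1 UMI (3.29e-07). It was 0.51 without both ZT18 libraries and 0.87 in the cells of at least 3000 UMIs, the extremes over all alternatives. A rhythm called in pericentral and not in periportal cells is therefore not shown to differ between them.

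**Figure D5:**
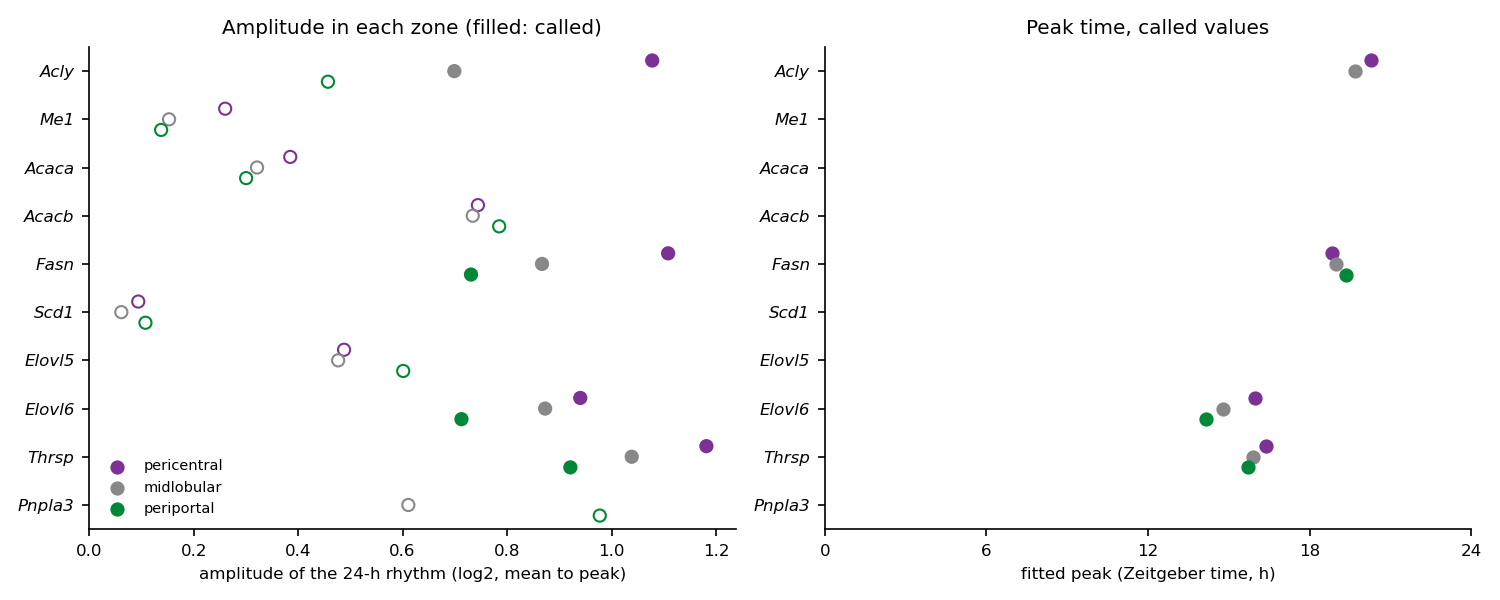
Left, amplitude of the fitted 24-h rhythm (log2, mean to peak, x axis from 0) of each gene in each zone, filled where called; Pnpla3 was not tested in the pericentral zone. Right, fitted peak (Zeitgeber time, h) of the called values. Fitted peaks of Elovl6 and Thrsp lie between ZT 14.13 and ZT 16.37, those of Fasn and Acly between ZT 18.81 and ZT 20.29. Peaks between the sampled times come from the fit alone. They have no error here, and peak times were not tested against each other.

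Rhythm calls within zones again depended on single libraries. Fasn was lost without ZT18A in all 3 zones (edgeR adjusted p = 0.0947, 0.153 and 0.12 from pericentral to periportal), and without ZT6B or ZT18B in midlobular (0.0994 and 0.055) and periportal cells (0.0902 and 0.054). Midlobular Acly was lost without ZT6A, ZT6B, ZT12B, ZT18A or ZT18B (0.0567 to 0.16). Elovl6 was lost in pericentral cells without ZT0A, ZT6A, ZT6B, ZT12A or ZT18A (0.0564 to 0.172), in midlobular cells without ZT12A (0.0557) and in periportal cells without ZT0C or ZT12A (0.0595 and 0.0623). Thrsp was lost without ZT0B, ZT6A, ZT6B or ZT18A in every zone, and without ZT0C, ZT12A or ZT12C in midlobular and periportal cells (0.0595 to 0.152 over all zones). Without both ZT18 libraries no gene was called in pericentral cells, Thrsp remained in midlobular (edgeR adjusted p = 0.0382) and Elovl6 and Thrsp in periportal cells (0.0261 and 0.0215). With the letter block Acacb passed in pericentral cells (edgeR adjusted p = 0.0438 against 0.068 without the block).

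Since Fasn, Acly, Elovl6 and Thrsp were each called rhythmic in pericentral cells, the 250 bases before their transcription starts are shown, from RefSeq on GRCm38.p6 (the equivalent of mm10, which the submitters' processing notes name). They lie at chr11:120824548-120824797 on the minus strand (Fasn), chr11:100528001-100528250 on the minus strand (Acly), chr3:129532136-129532385 on the plus strand (Elovl6) and chr7:97417551-97417800 on the minus strand (Thrsp), and are written 5′ to 3′ on the gene's strand. Capitals mark CCAAT or its complement ATTGG, the box bound by NF-Y.
Fasn: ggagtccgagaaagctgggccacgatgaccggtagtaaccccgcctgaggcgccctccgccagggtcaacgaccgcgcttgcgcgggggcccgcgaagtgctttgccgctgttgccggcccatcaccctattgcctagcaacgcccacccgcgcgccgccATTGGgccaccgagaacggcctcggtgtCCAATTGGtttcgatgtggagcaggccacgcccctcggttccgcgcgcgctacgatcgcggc
Acly: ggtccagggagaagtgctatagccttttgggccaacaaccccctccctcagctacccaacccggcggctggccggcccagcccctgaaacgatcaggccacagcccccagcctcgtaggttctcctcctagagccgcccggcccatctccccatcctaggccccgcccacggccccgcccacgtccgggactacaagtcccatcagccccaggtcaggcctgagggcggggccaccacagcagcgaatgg
Elovl6: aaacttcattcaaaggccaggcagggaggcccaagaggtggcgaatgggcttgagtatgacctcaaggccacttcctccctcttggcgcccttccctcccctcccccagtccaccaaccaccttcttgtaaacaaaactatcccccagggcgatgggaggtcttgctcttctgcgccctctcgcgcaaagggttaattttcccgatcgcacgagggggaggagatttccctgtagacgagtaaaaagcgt
Thrsp: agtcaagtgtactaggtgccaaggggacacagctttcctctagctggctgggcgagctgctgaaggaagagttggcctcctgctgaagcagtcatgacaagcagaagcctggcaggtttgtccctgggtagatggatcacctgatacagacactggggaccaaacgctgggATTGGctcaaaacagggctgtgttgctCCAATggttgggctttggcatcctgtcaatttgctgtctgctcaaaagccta
Fasn had 3 matches, with first bases at -90, -62 and -59 from the start, the last pair overlapping, and Thrsp had 2, at -79 and -52. Acly and Elovl6 had 0.

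Of the 10 genes, 9 had a RefSeq entry in the promoter table. On both strands, CCAAT was found before 6 of these 9 (for Me1, before 1 of its 2 entries), against 33.8% of 32851 entries. The E-box CACGTG, a motif of clock and USF factors, was found before 1 (Elovl5, first base at -161), against 6.02%, and the sterol regulatory element TCACNCCAC before 0, against 1.05%. Overlapping matches were counted separately. A match is a description of letters and no evidence of binding, and a missing match says only that these letters are not in this window.

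The genes most like Fasn and Acly were sought over the 30 library-by-zone sums, among 4334 other genes averaging 20 CPM or more, by Pearson's r of log2(CPM + 1). The 30 points share libraries and depth, so r is a description. For Fasn, the 5 most like included Keg1 (r = 0.868), Sqle (0.836), Cxadr (0.810) and C1s1 (0.804). For Acly, they included Sqle (0.857), Tram1 (0.760), Gldc (0.747) and Sfxn1 (0.743). Sqle, squalene epoxidase of sterol synthesis, was on both lists. Within the pathway, Elovl6 and Thrsp had r = 0.781, Fasn and Acly 0.773, and Elovl5 and Thrsp -0.519.

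Other genes around the pathway were read from 4 lists. Of 12 regulators of lipid synthesis genes, all tested, 2 were rhythmic over all cells, against 5.14% of all genes: Insig2, which retains SREBP in the endoplasmic reticulum (amplitude 0.93, peak ZT 23.81, edgeR adjusted p = 0.00181), which fell by 1.85 on the log2 scale from ZT0 to ZT12, and Mid1ip1, a partner of Thrsp that activates acetyl-CoA carboxylase (0.84, ZT 19.49, 0.037). Mid1ip1 (1.55 ± 0.38) and Mlx, the dimer partner of ChREBP (0.93 ± 0.23), were the 2 of 12 higher at ZT18 than at ZT6, against 2.35% of all genes. Srebf1, the gene of SREBP-1, was higher periportally by 0.46 ± 0.08 in 10 of 10 libraries (edgeR adjusted p = 5.13e-05), as was Ppargc1b, a coactivator of SREBP, by 0.76 ± 0.20 in 8 of 10. The other 10 regulators did not pass the zone test, so 2 of 12 were higher and 0 lower, against 11.9% and 12.7% of all genes. By time, the Srebf1 difference was 0.44 ± 0.13 at ZT0 and 0.93 ± 0.19 at ZT6, both called, and 0.28 ± 0.15 at ZT12 and 0.38 ± 0.16 at ZT18, not called. Its rhythm over all cells had an amplitude of 0.48 (edgeR adjusted p = 0.111).

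Of 13 genes that supply carbon and NADPH, 12 were tested (G6pdx was below the filter), and 0 were rhythmic over all cells by edgeR, against 5.14% of all genes; 5 of the 12 had an unadjusted p under 0.05, against 1816 of 8908 genes. By zone, 3 were higher periportally, among them Khk, ketohexokinase (0.55 ± 0.07), and Pklr, the liver pyruvate kinase (0.27 ± 0.09), and 2 pericentrally, the NADPH source Idh1 (-0.45 ± 0.07) and citrate synthase Cs (-0.54 ± 0.10), against 11.9% and 12.7% of all genes. Pgd, another NADPH-forming enzyme of the list, had a difference of 0.0052 ± 0.13 (edgeR adjusted p = 0.985).

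Of 10 other elongation and desaturation genes, 9 were tested and 1 was rhythmic, against 5.14% of all genes. This was Elovl3, an elongase of very long chains (amplitude 1.94, peak ZT 23.66, edgeR adjusted p = 0.000368). It was also the steepest of the list by zone, at -2.12 ± 0.14. Of the 9, 3 were higher periportally, Elovl2 (0.72 ± 0.07), Fads1 (0.44 ± 0.07) and Fads2 (0.52 ± 0.11), and 3 pericentrally, Elovl3, Hsd17b12 (-0.22 ± 0.07) and Hacd3 (-0.22 ± 0.07), against 11.9% and 12.7% of all genes. Of 7 genes of malonyl-CoA use and AMPK, 6 were tested. Cpt1a, the carnitine acyltransferase that malonyl-CoA inhibits, was rhythmic with a peak at ZT 10.58 (amplitude 0.83, edgeR adjusted p = 0.00187) and rose by 1.55 ± 0.19 from ZT0 to ZT12 (edgeR adjusted p = 0.000517). Prkab1, an AMPK subunit, was higher periportally by 0.70 ± 0.17. In each of these 3 tests 1 of the 6 was called. The shares of all genes were 5.14% rhythmic, 1.74% higher at ZT12 than at ZT0 and 11.9% higher periportally.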

How the data were processed

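The deposited values are raw UMI counts per gene and cell, whole numbers with unequal totals, from 10 droplet libraries (10x 3' kit v2, per the labels' protocols). The submitters' processing notes name Cell Ranger, mm10 and hg19 with no version or role; filters on cells are not given in the sources used here. All 18378 cells were kept (1048 to 10001 UMIs each), with no doublet call; dropping the top 5% by UMIs was an alternative.

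Cells of each library were ordered by the mean z-score of 8 periportal minus 8 pericentral landmarks in log2(1 + 10000 × UMI share). Odd and even landmarks gave scores correlated with r of 0.683 to 0.847 across cells. UMIs were summed per library, or per library and zone, and tested with edgeR 4.0.16 (R 4.3.3; TMM, mean of at least 3 CPM, quasi-likelihood F-tests, Benjamini-Hochberg over all genes, 0.05). Rhythms were a 24-h cosine and sine, zone tests had the library as a block, and SE is the log2 difference over the square root of F. The tests were checked on simulated counts. DESeq2 1.42.0 was an alternative. Promoter letters came from RefSeq, and figures from matplotlib 3.10.9.

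Libraries with the same letter at ZT0 and ZT12 deviated together (r = 0.239, 0.428 and 0.485 for A, B and C). Each of these pairs also shares an index column, so letter and column cannot be told apart there. The pairs of ZT6 and ZT18 with the same letter did not deviate together (0.0326). The main tests between times had no block, and letters were used as a block in an alternative. The named genes are all 10 pathway genes; in related lists, up to 3 called genes per direction and test; and the 5 genes most like Fasn and Acly. A few genes that this rule names are not reported here. The genes and lists were chosen with earlier results of these data known. No library was a copy of another of its time (chi-square per degree of freedom 5.81 to 69.3). The ZT6 pair gave 6.19 and the ZT18 pair 5.81, against 24.3 to 69.3 for pairs within ZT0 or ZT12. The ZT6 libraries also share an index column, as do the ZT18 libraries, whereas those within ZT0 or ZT12 do not. Whether the libraries of ZT6, or those of ZT18, came from different mice is not stated.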

Additional observations from a re-analysis of the deposited data

Results flagged for a closer look

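For Elovl6, the periportal minus pericentral difference was 0.42 at ZT6 and -0.38 at ZT18 (log2), and both libraries of ZT6 were on one side and both of ZT18 on the other. Thrsp did the same, with 0.37 at ZT6 and -0.26 at ZT18. None of these 4 differences passed by itself (edgeR adjusted p = 0.234, 0.192, 0.139 and 0.322). The pair of times was chosen for its opposite signs, and the difference between these 2 times was not tested by itself; the zone-dependent rhythm over all 4 times did not pass (edgeR adjusted p = 0.5 for Elovl6 and 0.658 for Thrsp). Both ZT18 libraries share an index column used at no other time.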

How the results depend on the processing

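Counts of called genes among the 10 are given with the alternative first and the value reported above second. The share of all genes that each alternative called is not given here, so a change in these counts need not be particular to the 10. DESeq2 gave 6 against 3 rhythmic genes over all cells, adding Acacb, Acly and Elovl5 (DESeq2 adjusted p = 0.00866, 0.00586 and 0.00697). It gave 5 against 3 in periportal cells, 5 against 3 between ZT18 and ZT6, and 3 against 5 for zones at ZT0. Between ZT12 and ZT0 it added Thrsp (DESeq2 adjusted p = 0.0377). Keeping every gene with at least 1 UMI gave 5 rhythmic genes over all cells, 6 in periportal cells, 2 with a midlobular level away from the outer zones against 0, and 1 with a zone-dependent rhythm against 0. Cells with at least 3000 UMIs (44 to 953 a library) gave 1 against 2 between ZT12 and ZT0, 3 against 5 for zones at ZT6 and at ZT12, 1 against 2 at ZT18, and 1 zone-dependent rhythm. Comparing the outermost of 4 zones gave 2 against 4 midlobular rhythms, 1 midlobular level and 1 zone-dependent rhythm. Library size alone gave 1 between ZT12 and ZT0. The index column as a block, which fits the rhythm to ZT0, ZT6 and ZT12 alone, gave 5 rhythmic genes over all cells. Without both ZT18 libraries (for rhythms an alternative chosen after seeing the data) 0 genes were rhythmic over all cells, 0 against 4 in pericentral and 1 against 4 in midlobular cells. The cause of these changes was not tested. The zone count of 6 was 5 to 7 under every alternative.

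Leaving out 1 library gave 1 to 3 rhythmic genes over all cells, 1 to 5 in pericentral, 1 to 5 in midlobular and 1 to 4 in periportal cells, 0 to 2 between ZT12 and ZT0, 0 to 4 between ZT18 and ZT6, 3 to 6 for zones at ZT0, 2 to 5 at ZT6, 0 to 4 at ZT18, and 0 to 1 zone-dependent rhythm. With the library letter as a replicate block, 4 genes were rhythmic over all cells, 5 in pericentral, 4 in midlobular and 3 in periportal cells, 2 differed between ZT12 and ZT0 and 4 between ZT18 and ZT6; beyond Acly, Acacb and Elovl5, named above, it changed no call. Of 854 alternatives of the 42 called values, all kept their direction and 736 stayed called. For a rhythm, this means only that the fitted peak moved by no more than 6 h. Library size alone moved the median of all genes by 0.14 (log2) between ZT12 and ZT0, where 66.7% of calls were then higher against 50.7%, and by -0.10 between zones, where 27.9% were higher against 48.3%; at single times the zone shift was -0.08 to -0.11 and the share 28.8% to 35.9% against 41.6% to 51.8%. Depth limits Pnpla3, with 183 UMIs in all.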
